A study of Rattus norvegicus with 9 samples.

Results

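Tissue of the rat patellar enthesis treated with a mixed-transition scaffold (S-MT) was set directly against tissue after a transversal cut of the tendon (TC), both 12 weeks after surgery. All 84 target genes of a rat osteogenesis PCR array were compared between these 2 of the 9 samples of the series. The study followed healing of the tendon-to-bone insertion in native tissue and in 4 operated groups at 4 and 12 weeks. The question here is how expression with the scaffold in a bone defect differed from expression after a tendon injury alone. S-MT received a biphasic silk fibroin scaffold with a mixed transition between its bony and its tendon end, sutured into a defect sawn into the tibial insertion of the detached patellar tendon. TC received a cut across the tendon close to the enthesis, with the bone left intact. The labels describe TC as a suture of tendon to tendon, while the methods state that this group was left untreated. All animals were male Sprague Dawley rats. The groups thus differed in the bone defect, the detachment of the tendon and the scaffold at once, and the parts of these in any difference cannot be told apart.

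Each well of the array amplifies one transcript, and the readout is the threshold cycle (Ct), at which the fluorescence crosses a threshold. A later Ct means less template. The design text names 8 samples in each group at each time, whereas 1 value per well and group was deposited, and whether that value is one rat, an average or a pool is not given in the sources used here. There was therefore no replicate, no error and no test, and every difference below describes 1 value against another. Undetermined wells and those later than cycle 35 were given the value 35, and the average of the reference genes *Ldha* and *Rplp1* was taken off each Ct. The log2 difference is positive where S-MT was higher, and genes with a difference of 2-fold or more are called higher or lower. A gene over Ct 35 in one group has only a bound, and a gene over it in both has no value. In bulk tissue, fewer cells of a type and less RNA per cell cannot be told apart.

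The enthesis joins tendon to bone through fibrocartilage. Tendon is built mainly of type I collagen with smaller amounts of types III, V and XIV, whereas fibrocartilage also contains type II collagen and, where it mineralizes, type X. Healing tissue lays down type III collagen and fibronectin early, and proteases such as cathepsin K and the matrix metalloproteinases remodel that matrix. Bone morphogenetic proteins (BMPs) act through receptors and SMAD proteins to drive cartilage and bone formation, and antagonists such as noggin hold them back.

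Most fibrillar collagen genes (4 of 5) and matrix protein genes (5 of 6) and the proteases *Ctsk* and *Mmp2* were higher in S-MT than in TC, although *Col2a1*, *Comp* and 3 other proteases were lower, while no gene of the osteoblast, BMP, SMAD or chondrogenic lists was higher, and these genes were lower, within 2-fold or without a direction. Of the 84 genes, 47 were within Ct 35 in both groups, 19 in S-MT alone and 4 in TC alone, and 14 were over it in both. Among the 70 genes with a value, 20 were at least 2-fold higher in S-MT (28.6% of the genes with a value) and 25 were at least 2-fold lower (35.7%). Of these, 16 higher and 21 lower genes were within the limit in both groups, and the other 4 in each direction rest on a bound. The 19 genes within it in S-MT alone could not be called lower, and the 4 in TC alone could not be called higher. These counts depend on the reference and on the limit. With all 5 housekeeping genes as reference 7 genes were higher and 34 lower, with *Actb* and *B2m* 1 was higher and 40 were lower, and with the control well H06 56 were higher and 0 lower. With a limit of Ct 33, 15 were higher and 5 lower. The 7 genes still higher with all 5 housekeeping genes were *Spp1*, *Ctsk*, *Mmp2*, *Col3a1*, *Fn1*, *Anxa5* and *Col1a1*, and the 1 with *Actb* and *B2m* was *Spp1*. The median log2 difference of the 47 genes was -0.29, with quartiles at -1.97 and 2.34 and a range of -4.66 to 4.70. The plot of ordered differences shows these values gene by gene.

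**Figure D1:**
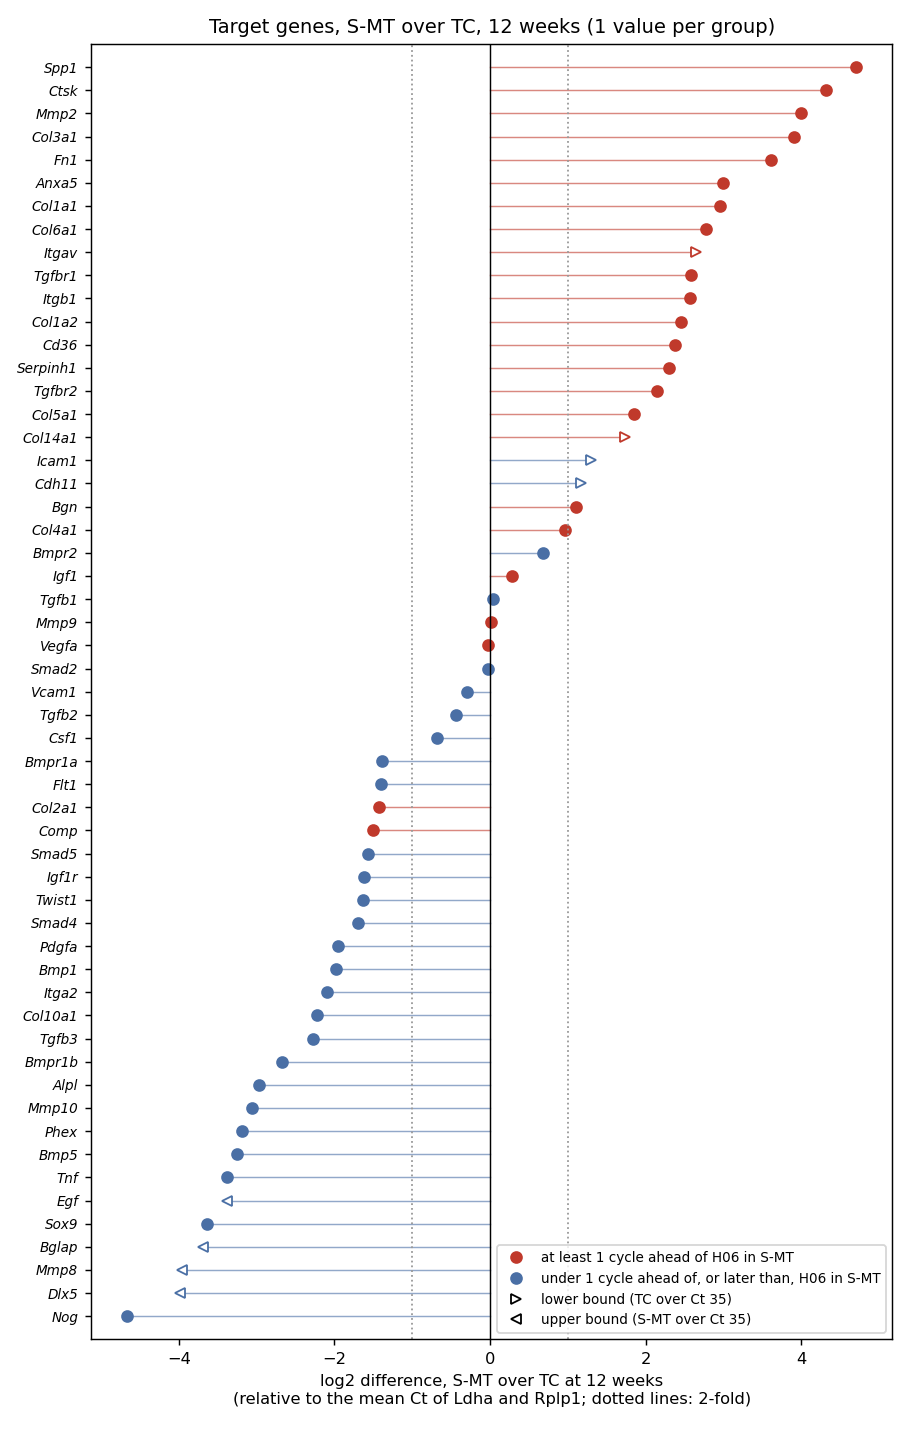
Log2 difference of S-MT over TC at 12 weeks for the 47 genes within Ct 35 in both groups and the 8 genes past 2-fold that rest on a bound, ordered from the highest at the top (*Spp1*, 4.70) to the lowest (*Nog*, -4.66). Red marks genes at least 1 cycle ahead of well H06 in S-MT and blue the others, and open triangles are bounds. Of the 20 higher genes 18 are red, and of the 25 lower genes 2 are red. The Ct in S-MT enters both the color and the difference.

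Most higher genes came before well H06 in S-MT, and most lower genes came after it. In the maker's usual layout this well holds a control that amplifies genomic DNA, although the sources used here do not name it. Its Ct was 30.9 in S-MT and 30.4 in TC. In S-MT, 24 of 84 genes led it by 1 cycle or more and 30 were earlier at all. In TC only *Col1a2* was at least 1 cycle ahead, *Col2a1* was 0.49 cycles ahead, and the other 82 genes were later or undetermined. The genes in TC also lay closer together. The range between the quartiles of Ct was 5.31 cycles in S-MT and 2.34 cycles in TC, and 28 genes in S-MT against 54 in TC had a Ct between 33 and 36. Of the 20 genes higher in S-MT, 18 were at least 1 cycle ahead of H06 in S-MT, while 19 were later than H06 in TC, so that the value on the TC side mostly lay behind the control well. Of the 25 lower genes, 22 were later than H06 in both groups. The exceptions were *Col2a1*, *Comp* and *Bmp1*. The Ct in S-MT enters both the lead over H06 and the difference, so part of this division is built in.

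**Figure D2:**
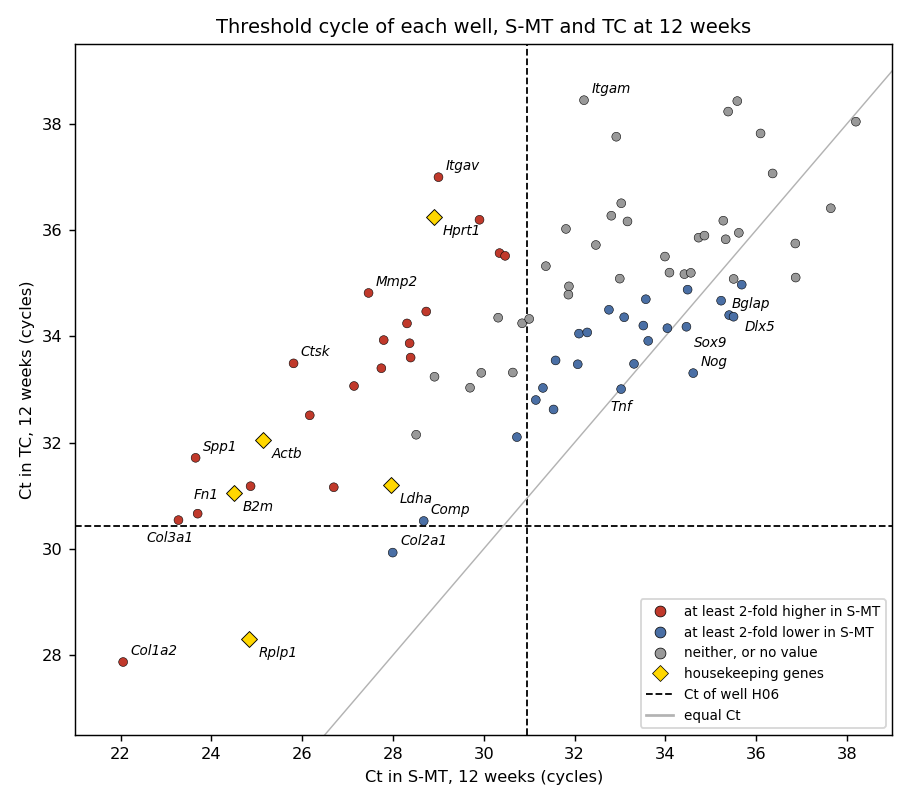
Ct of each target gene with a Ct in both groups (circles) and of the 5 housekeeping genes (diamonds), with S-MT on the x axis and TC on the y axis, in cycles. Dashed lines mark well H06 (30.9 in S-MT, 30.4 in TC); red circles, higher in S-MT, lie left of the vertical line, and of the target genes *Col1a2* and *Col2a1* lie below the horizontal one.

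The reference genes and control wells set the scale of every difference. *Ldha* and *Rplp1* averaged 26.4 cycles in S-MT and 29.7 in TC, that is 3.36 cycles earlier in S-MT, by 3.25 cycles for *Ldha* and 3.46 for *Rplp1*. The other housekeeping genes were earlier in S-MT by more. *Actb*, which encodes cytoskeletal actin, had Ct values of 25.1 in S-MT and 32.1 in TC. *B2m*, the light chain of class I histocompatibility molecules, had 24.5 in S-MT and 31.1 in TC, and *Hprt1*, an enzyme of purine salvage, 28.9 in S-MT and 36.2 in TC. On the scale used here these 3 genes were higher in S-MT by log2 differences of 3.57, 3.21 and 3.98 (with *Hprt1* in TC as deposited, over the limit). All 5 housekeeping genes preceded H06 in S-MT by 2.05 to 6.45 cycles. In TC only *Rplp1* did, by 2.12 cycles, and *Ldha*, one of the 2 reference genes, came 0.78 cycles after it. Relative to the reference mean, H06 was 4.56 cycles later in S-MT and 0.67 cycles later in TC. Wells H07 to H09, which usually hold reverse transcription controls, averaged 23.6 in S-MT and 25.1 in TC. Wells H10 to H12, usually positive PCR controls, averaged 21.2 in both. The part of these wells in the differences between genes was not tested.

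**Figure D3:**
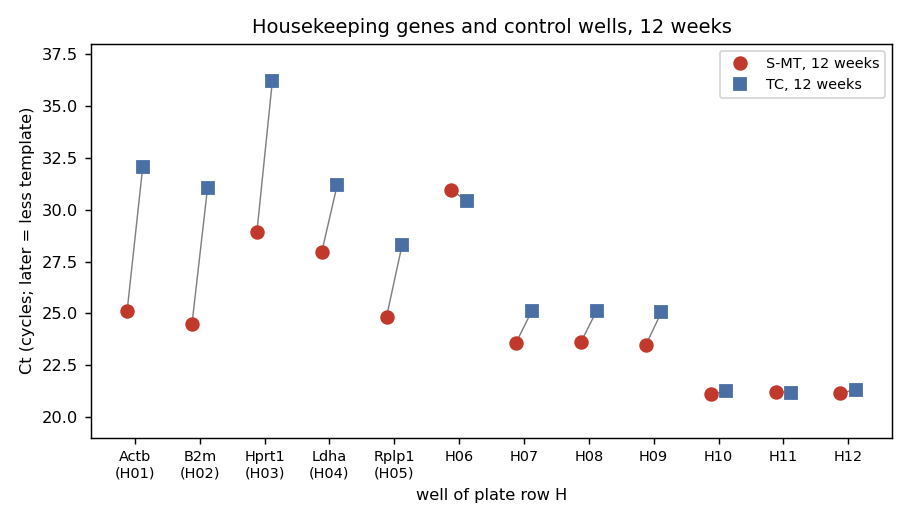
Ct in cycles of the 12 wells of plate row H in S-MT (circles, left) and TC (squares, right) at 12 weeks, 1 value each. The housekeeping genes are earlier in S-MT by 3.25 to 7.33 cycles, wells H10 to H12 nearly coincide, and H06 is 0.53 cycles later in S-MT.

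Matrix proteins and collagen folding were the list with the most higher genes, 5 of 6, with 1 lower. Over all genes with a value, 28.6% were higher and 35.7% lower. The median log2 difference of the list was 2.64 beside -0.29 for all genes measured in both groups. *Spp1* encodes osteopontin, a phosphoprotein of bone matrix that is also made by macrophages. Its Ct was 23.7 in S-MT and 31.7 in TC, the highest measured difference on the array at 26.0-fold higher in S-MT (log2 4.70). *Fn1* encodes fibronectin, the adhesive glycoprotein of provisional matrix, and its Ct of 23.7 in S-MT against 30.7 in TC made it 12.2-fold higher (log2 3.61). *Anxa5*, a phospholipid-binding protein found in matrix vesicles, had Ct values of 26.2 in S-MT and 32.5 in TC, or 7.93-fold higher in S-MT (log2 2.99). *Serpinh1*, the collagen chaperone HSP47, was 4.92-fold higher (Ct 27.7 in S-MT, 33.4 in TC), and *Bgn*, the small proteoglycan biglycan, was 2.15-fold higher (Ct 26.7 in S-MT, 31.2 in TC). Neither *Serpinh1* nor *Bgn* passed 2-fold with all 5 housekeeping genes as reference. All 6 genes were at least 2.27 cycles ahead of H06 in S-MT, and all 6 were later than it in TC, by 0.10 to 2.98 cycles. The member that went the other way was *Comp*, a matrix protein of tendon and cartilage. Its Ct was 28.7 in S-MT and 30.5 in TC, which is 2.85-fold lower in S-MT (log2 -1.51), as the reference genes lay further apart than the 1.85 cycles of *Comp*.

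Fibrillar collagens gave the same division. Of 5 genes, 4 were higher in S-MT and 1 was lower, beside 28.6% and 35.7% over all genes with a value. Their median was 2.46 beside -0.29 for all genes measured in both groups. All 5 were at least 1 cycle ahead of H06 in S-MT, as were 24 of all 84 genes. *Col3a1*, the collagen of early repair tissue, had Ct values of 23.3 in S-MT and 30.5 in TC and was 15.0-fold higher in S-MT (log2 3.91). *Col1a1*, a chain of type I collagen, had Ct values of 24.9 in S-MT and 31.2 in TC and was 7.76-fold higher (log2 2.96). *Col1a2* encodes the partner chain of *Col1a1* and had the earliest Ct of any target gene in both groups, 22.1 in S-MT and 27.9 in TC. It was 5.48-fold higher in S-MT (log2 2.46) and is the one gene at least 1 cycle ahead of H06 on both sides, by 8.89 cycles in S-MT and 2.55 in TC. *Col5a1*, whose product regulates fibril diameter, was 3.61-fold higher (Ct 28.4 in S-MT, 33.6 in TC). With all 5 housekeeping genes as reference, *Col1a2* and *Col5a1* no longer passed 2-fold. The cartilage collagen *Col2a1* differed from the others in direction. Its Ct was 28.0 in S-MT and 29.9 in TC, and after the reference was subtracted it was 2.68-fold lower in S-MT (log2 -1.42). It was earlier than H06 in both groups, by 2.95 cycles in S-MT and by 0.49 in TC.

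Among the other collagens, 2 of 4 were higher and 1 was lower (28.6% and 35.7% over all genes with a value). *Col6a1*, of the pericellular matrix, had Ct values of 27.8 in S-MT and 33.9 in TC and was 6.84-fold higher in S-MT (log2 2.77). It did not pass 2-fold with all 5 housekeeping genes as reference (log2 0.87). *Col14a1*, a collagen on the surface of tendon fibrils, had Ct values of 29.9 in S-MT and was over the limit in TC at 36.2, so that it was at least 3.33-fold higher. Its bound no longer passed 2-fold with all 5 housekeeping genes as reference (log2 -0.17), with the median of target genes (0.54) or at a limit of Ct 33 (-0.26). *Col4a1*, of basement membranes, stood just under the limit at 1.95-fold higher. *Col10a1*, which marks hypertrophic and mineralizing cartilage, had Ct values of 33.6 in S-MT and 34.7 in TC, 4.69-fold lower in S-MT (log2 -2.23), with both values later than H06.

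Of the 6 matrix proteases, 2 were higher and 3 were lower, with a median of 0.01, beside 28.6% higher and 35.7% lower over all genes with a value. *Ctsk*, cathepsin K, the main collagen-degrading enzyme of osteoclasts, had Ct values of 25.8 in S-MT and 33.5 in TC and was 20.0-fold higher in S-MT (log2 4.32). *Mmp2*, a gelatinase of fibroblasts, had Ct values of 27.5 in S-MT and 34.8 in TC and was 15.9-fold higher (log2 4.00). Both were ahead of H06 in S-MT, by 5.14 and 3.49 cycles, and later in TC, by 3.07 and 4.39 cycles. *Mmp9*, the gelatinase of osteoclasts and neutrophils, did not differ by 2-fold (Ct 29.9 in S-MT, 33.3 in TC, log2 0.01). Lower in S-MT were *Mmp10*, a stromelysin, at 8.37-fold (Ct 33.6 in S-MT, 33.9 in TC, log2 -3.06), and *Bmp1*, the procollagen C-proteinase that trims collagens despite its name, at 3.96-fold (Ct 30.7 in S-MT, 32.1 in TC). *Mmp8*, the neutrophil collagenase, was over the limit in S-MT at 35.4 and had a Ct of 34.4 in TC, which makes it at least 15.5-fold lower. For *Mmp10* and *Mmp8* both values were later than H06.

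Of 8 cell adhesion genes, 7 had a value. Of these, 4 were higher and 1 was lower in S-MT, beside 28.6% and 35.7% over all genes with a value. Among the 4, 3 rest on a bound. *Itgb1*, the beta chain shared by collagen and fibronectin receptors, had Ct values of 27.1 in S-MT and 33.1 in TC and was 5.91-fold higher in S-MT (log2 2.56). *Itgav*, an alpha chain that binds osteopontin and fibronectin, had Ct values of 29.0 in S-MT against 37.0 in TC and was at least 6.24-fold higher. *Icam1*, a leukocyte adhesion molecule, was at least 2.46-fold higher (Ct 30.3 in S-MT, 35.6 in TC), and *Cdh11*, a cadherin of mesenchymal cells, at least 2.25-fold (Ct 30.5 in S-MT, 35.5 in TC). These last 2 preceded H06 in S-MT by only 0.60 and 0.48 cycles. Neither bound passed 2-fold with all 5 housekeeping genes as reference (log2 -0.61 for *Icam1*, -0.73 for *Cdh11*), with the median of target genes (0.09 and -0.03) or at a limit of Ct 33 (-0.70 and -0.83). *Itgav* and *Itgb1* fell short of 2-fold with all 5 housekeeping genes (0.74 and 0.66), and *Itgav* also at Ct 33 (0.64). *Itga2*, a chain of a collagen receptor, was 4.26-fold lower in S-MT (Ct 33.1 in S-MT, 34.4 in TC), later than H06 in both groups. *Itgam*, a marker of myeloid leukocytes, had Ct values of 32.2 in S-MT and 38.4 in TC, a gap of 6.24 cycles, but with TC set to the limit its bound gives no direction.

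In the TGF-beta family, 2 of 3 receptors were higher in S-MT and none of the 3 ligands was, beside 28.6% over all genes with a value. *Tgfbr1*, the kinase that passes on the signal, had Ct values of 28.3 in S-MT and 34.2 in TC and was 5.96-fold higher in S-MT (log2 2.58), and *Tgfbr2*, which binds the ligand, was 4.42-fold higher (Ct 28.4 in S-MT, 33.9 in TC). Neither of these receptors passed 2-fold with all 5 housekeeping genes as reference. The ligands *Tgfb1* (log2 0.04) and *Tgfb2* (log2 -0.44) were within 2-fold. *Tgfb3* was 4.83-fold lower in S-MT (Ct 31.5 in S-MT, 32.6 in TC, log2 -2.27), and both of its values were later than H06. The co-receptor *Tgfbr3* was over the limit in TC and has no direction.

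Of the other growth factors, *Egf*, the epidermal growth factor, was over the limit in S-MT at 35.7 and had a Ct of 34.97 in TC, just inside the limit, and was at least 10.5-fold lower. *Pdgfa*, a mitogen of mesenchymal cells, was 3.87-fold lower and *Igf1r*, the IGF receptor, 3.06-fold lower, while its ligand *Igf1* was within 2-fold (log2 0.28). No gene of this list was higher and 3 of 6 with a value were lower, beside 28.6% and 35.7% over all genes with a value. Of its 8 genes, *Fgf1* and *Fgfr2* were over the limit in both groups.

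No BMP ligand, antagonist, receptor or SMAD was higher in S-MT, beside 28.6% over all genes with a value. Among those with a value, 1 of 3 ligands, 1 of 2 antagonists, 2 of 4 receptors and 2 of 4 SMADs were lower. Over all genes with a value 35.7% were lower. None of these 18 genes was at least 1 cycle ahead of H06 in either group. Of all 84 genes, 24 in S-MT and 1 in TC had such a lead. Of 7 BMP-family ligands, *Bmp2*, *Bmp6*, *Bmp7* and *Gdf10* were over the limit in both groups. *Bmp5* had Ct values of 34.0 in S-MT and 34.2 in TC and was 9.50-fold lower in S-MT (log2 -3.25). The antagonist *Nog* had the lowest log2 difference on the array, -4.66. It came later in S-MT, at a Ct of 34.6, than in TC, at 33.3, which is 25.3-fold lower in S-MT, with both values behind H06 by 3.66 and 2.89 cycles. *Bmpr1b* was 6.36-fold lower (Ct 33.5 in S-MT, 34.2 in TC, log2 -2.67) and *Bmpr1a* 2.63-fold lower, both type I receptors, while the type II receptor *Bmpr2* was within 2-fold (log2 0.68). Of the intracellular mediators, *Smad4*, shared by the BMP and TGF-beta pathways, was 3.25-fold lower and *Smad5*, of the BMP branch, 2.95-fold lower. *Smad2*, of the TGF-beta branch, was level (log2 -0.03).

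Osteoblast and mineralization genes came late in both groups, and none of the 9 was ahead of H06 in either. Of all 84 genes, 30 were earlier than H06 in S-MT and 2 in TC. Of the 6 with a value, 4 were lower in S-MT and 0 higher, beside 35.7% and 28.6% over all genes with a value. *Dlx5*, a transcription factor of early osteoblasts, was over the limit in S-MT at 35.5 and had a Ct of 34.4 in TC, at least 15.9-fold lower. *Bglap*, which encodes osteocalcin, was likewise over the limit in S-MT at 35.2 and had 34.7 in TC, at least 12.9-fold lower. *Phex*, an endopeptidase of osteocytes, had Ct values of 33.3 in S-MT and 33.5 in TC and was 9.09-fold lower (log2 -3.18), and *Alpl*, alkaline phosphatase, was 7.83-fold lower (Ct 34.5 in S-MT, 34.9 in TC, log2 -2.97). Before the reference was subtracted, the Ct values of these 4 genes lay between 1.13 cycles later and 0.39 cycles earlier in S-MT. *Runx2*, the master regulator of osteoblast fate, had Ct values of 31.8 in S-MT and 36.02 in TC and no direction, and *Sost*, *Sp7* and *Ahsg* were over the limit or undetermined in both groups. The defining bone markers among them, *Bglap*, *Sp7*, *Alpl* and *Sost*, were thus within 1 cycle of the limit or past it in S-MT and in TC.

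The chondrogenic transcription factor *Sox9* had Ct values of 34.5 in S-MT and 34.2 in TC and was 12.5-fold lower in S-MT (log2 -3.64), and *Twist1*, a factor of mesenchymal cells, was 3.10-fold lower. *Ihh* and *Gli1*, ligand and target of the hedgehog pathway, had no value. Of 6 cytokine and inflammation genes, *Tnf*, tumour necrosis factor, was lower by 10.4-fold, although its Ct of 33.02 in S-MT and 33.01 in TC hardly differed (log2 -3.38). *Csf1*, the macrophage growth factor, was within 2-fold (log2 -0.68). In the last list, *Cd36*, a fatty acid carrier of fat cells and macrophages, was 5.19-fold higher (Ct 28.7 in S-MT, 34.5 in TC, log2 2.38), *Flt1*, a VEGF receptor of endothelium, was 2.65-fold lower, and *Vegfa* was level (log2 -0.02). *Cd36* did not pass 2-fold with all 5 housekeeping genes as reference.

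**Figure D4:**
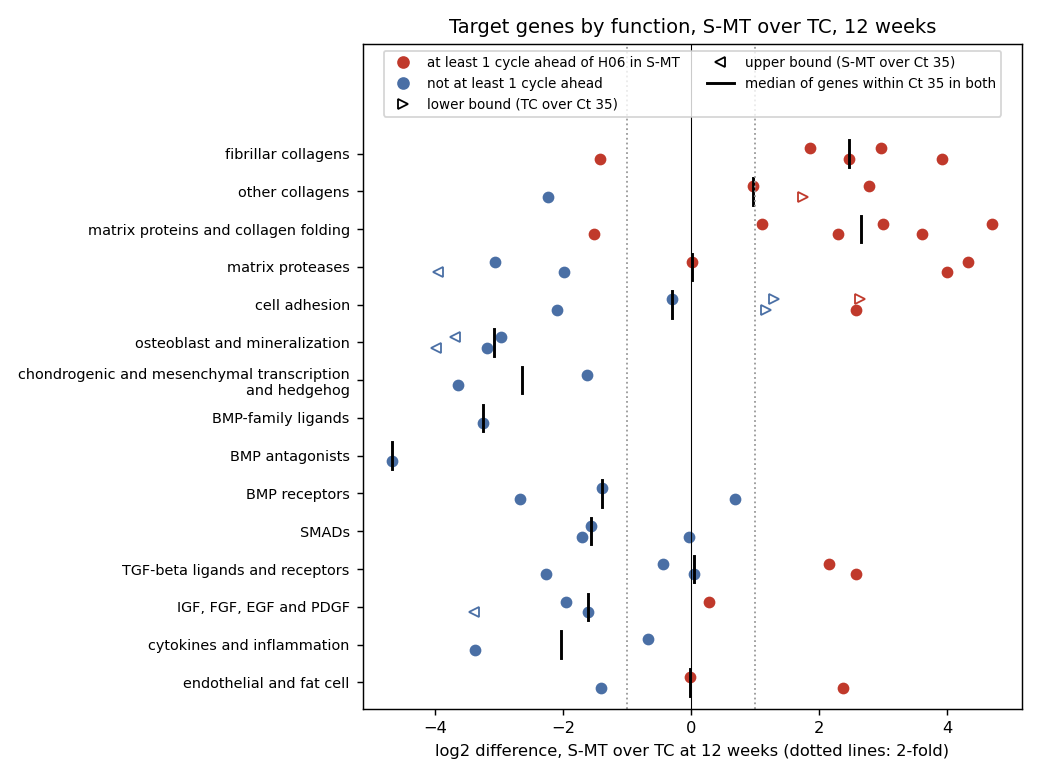
Log2 difference of S-MT over TC at 12 weeks for the same 55 genes, grouped by function, 1 symbol per gene, with the median of the genes within Ct 35 in both groups as a bar. Matrix and fibrillar collagen genes lie mostly to the right (medians 2.64 and 2.46), and osteoblast, BMP and chondrogenic genes to the left.

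Raw Ct values were earlier in S-MT for 70 of the 82 genes with a Ct in both groups and later for 12, and over all 82 the median was 2.03 cycles earlier in S-MT. The reference separated the groups by 3.36 cycles. A gene that was earlier in S-MT by less than this therefore has a log2 difference below 0, as *Comp*, *Col2a1* and *Bmp1* do. The 22 genes measured in both groups and at least 1 cycle ahead of H06 in S-MT had a median log2 difference of 2.42, and the other 25 had one of -1.95, where the Ct in S-MT enters both the lead and the difference.

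At 4 weeks after surgery the same direct comparison rests on other samples and on plates where H06 came later, at cycle 34.0 in S-MT and 36.5 in TC. There 24 genes were within the limit in both groups. The reference genes agreed less than at 12 weeks, as *Ldha* was 4.08 cycles earlier in S-MT and *Rplp1* 1.85. The 4-week differences rest on their mean and were not recomputed with either gene alone. Of the 51 genes with a value, 16 were higher (31.4%) and 4 were lower (7.84%) in S-MT. The 2 shares are not alike, since 27 of the 51 genes were within the limit in S-MT alone and 0 in TC alone. Those 27 could not be called lower, which leaves the 24. Of these 16, 15 were at least 1 cycle ahead of H06 in both groups, and so were all 4 lower genes. Over all 84 target genes, 38 in S-MT and 31 in TC had such a lead at 4 weeks. In TC the lead was fixed in advance for any gene within Ct 35, since H06 came at 36.5. A lower call requires a TC value within that limit, so for the 4 lower genes the lead in TC is no separate check. Most genes that were higher at 12 weeks were higher at 4 weeks too, 14 of 20 with bounds included. *Ctsk* had Ct values of 27.6 in S-MT and 34.3 in TC at 4 weeks (log2 3.70). *Spp1* had 24.95 in S-MT and 31.4 in TC (log2 3.47), and *Mmp2* had 29.0 in S-MT and 34.95 in TC (log2 3.02). *Fn1* (log2 2.54), *Itgb1* (3.05), *Serpinh1* (1.93) and *Col6a1* (1.66) were also higher. The 4 lower genes at 4 weeks were *Bmp1* (log2 -2.73), *Col2a1* (-2.65), *Tgfb3* (-1.78) and *Twist1* (-1.15), and all 4 were lower at 12 weeks.

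Across the 23 genes within the limit in all 4 samples, the log2 differences at both times correlated with r = 0.86 (Pearson) and rho = 0.82 (Spearman). The samples are not shared, but within a sample all genes share the same reference values, and genes are not replicates. The median difference of these 23 genes was 1.04 at 4 weeks and 1.85 at 12 weeks, each relative to the mean of *Ldha* and *Rplp1*. As those genes disagreed at 4 weeks, the 4-week median depends on which of them is used. Of the 13 that were higher at 12 weeks, 10 had passed 2-fold at 4 weeks, and all 5 lower genes except *Comp* (log2 -0.15 at 4 weeks) had done so. The remaining higher genes, past 2-fold at 12 weeks only, were collagens and a proteoglycan. *Col3a1* had a log2 difference of 0.98 at 4 weeks, *Col1a2* of 0.50 and *Bgn* of -0.52.

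**Figure D5:**
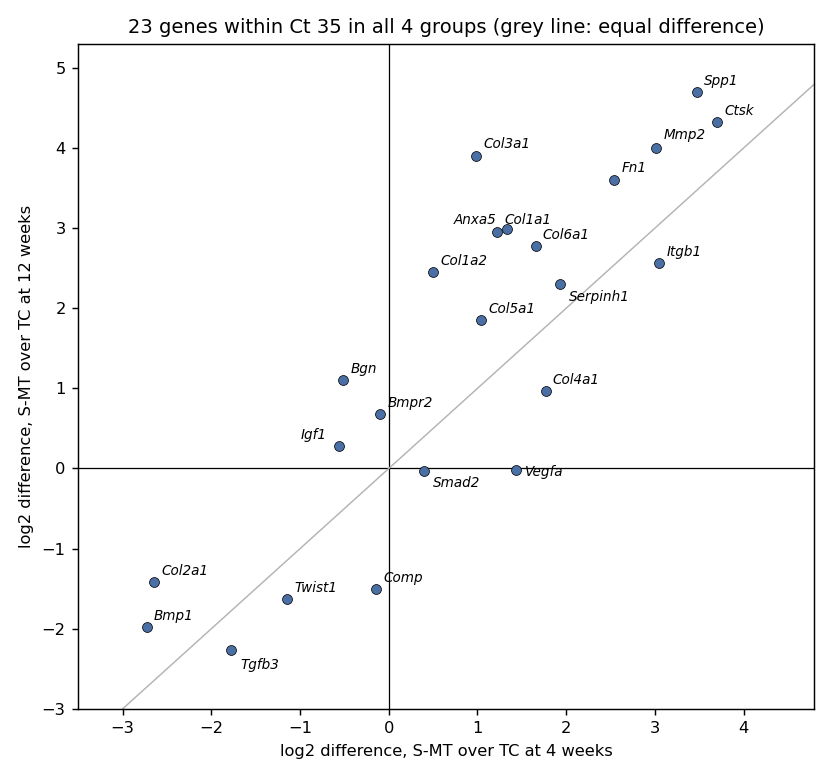
Log2 difference of S-MT over TC at 4 weeks (x axis) and 12 weeks (y axis) for the 23 genes within Ct 35 in all 4 samples, 1 point per gene, with the line of equal difference in grey. *Ctsk*, *Spp1* and *Mmp2* are far to the upper right at both times, *Bmp1*, *Col2a1* and *Tgfb3* are to the lower left, and *Col3a1* lies well above the line.

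Relative to the mean of *Ldha* and *Rplp1*, *Col3a1*, *Col1a2* and *Col1a1* went up in S-MT and down in TC between the times. These changes were not recomputed with either reference gene alone. From 4 to 12 weeks *Col3a1* changed by 1.20 (log2) in S-MT and by -1.72 in TC. *Col1a2* changed by 0.60 in S-MT and by -1.36 in TC, and *Col1a1* by 1.25 in S-MT and -0.49 in TC. In *Ctsk* both groups went the same way, by 1.36 in S-MT and 0.74 in TC. Of 52 genes with a value for this change in TC, 12 were at least 2-fold higher at 12 weeks (23.1%) and 4 were lower (7.69%), the lower ones being *Col3a1*, *Igf1*, *Col1a2* and *Anxa5*. A gene within Ct 35 at 12 weeks alone could not be called lower. *Comp* was higher in TC by 1.41, while in S-MT it changed by 0.04. In TC, 28 genes over Ct 35 at 4 weeks were within it at 12 weeks, and all 28 were later than H06, whose own Ct was 6.11 cycles earlier at 12 than at 4 weeks. Among the 25 genes lower in S-MT at 12 weeks, 20 had been over the limit in TC at 4 weeks, as had 60 of all 84 genes. The reference mean of TC moved by 0.03 cycles over the same time, but *Ldha* and *Rplp1* moved in opposite directions. In TC, *Ldha* went from Ct 32.5 at 4 weeks to 31.2 at 12 weeks, and *Rplp1* from 27.1 to 28.3. *Actb* (29.4 to 32.1), *B2m* (28.9 to 31.1) and *Hprt1* (32.4 to 36.2) came later at 12 weeks too. The changes in TC therefore depend on the reference gene chosen. The part of H06 in these changes was not tested.

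Relative to the reference genes, the other samples place the levels of single genes as follows. *Spp1* stood at a log2 level of 2.74 in S-MT, 1.44 in S-AT, the scaffold with an abrupt transition, -1.97 in the empty defect (ED) and -1.96 in TC, each at 12 weeks, and was undetermined in native tissue. *Ctsk* was at 0.58 in S-MT, -5.40 in S-AT, -3.06 in ED, -3.74 in TC and -4.66 in native tissue. *Col1a1* was at 1.53 in S-MT, -3.19 in S-AT, -1.32 in ED, -1.43 in TC and -1.98 in native tissue. For these genes S-MT had the highest level of the 5 samples, of which native tissue is labelled as 4 weeks. *Col2a1* ran in another order, with -1.60 in S-MT, -5.43 in S-AT, -1.40 in ED, -0.18 in TC and -3.72 in native tissue. *Comp* was at -2.29 in S-MT, -5.75 in S-AT, -1.80 in ED, -0.78 in TC and -1.63 in native tissue, and *Nog* at -8.22 in S-MT, -2.98 in ED and -3.56 in TC, and over the limit in S-AT and native tissue. TC had the highest level of *Col2a1* and *Comp*, and ED that of *Nog*. In ED at 12 weeks H06 had a Ct of 29.2 and 6 genes led it by 1 cycle or more, against 42 in S-AT and 16 in native tissue. Wells H10 to H12 averaged 26.0 in S-AT and 19.1 in ED, against 21.2 in S-MT and in TC, so levels in those samples carry a further difference between plates.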

How the data were processed

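The authors extracted total RNA, ran a 96-well rat osteogenesis PCR array with SYBR Green and deposited a table of Ct values (in cycles, 1 per well and group), a table of levels relative to the references *Ldha* and *Rplp1*, and a table of their own fold changes, which was not used. The tissue had been frozen, thawed and loaded to failure in mechanical tests before it was harvested for RNA. The effect of this on the Ct values was not tested. Per the methods, Ct values over 35 were set to 35. Wells were named through the symbols of the normalized table; names of control wells follow the maker's usual layout. From the Ct values, differences were recomputed in Python 3.11.15 (numpy 2.4.6, pandas 2.3.3) as described with the results, and figures were drawn with matplotlib 3.10.9. The arithmetic was checked on simulated Ct values. The 10 highest and 10 lowest genes measured in both groups, and every gene past 2-fold on a bound, were described in full. The genes, the 15 lists and the tests were chosen with earlier results of these data known. No depth applies to a Ct, and 1 value per group gives no precision.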

Additional observations from a re-analysis of the deposited data

Results flagged for a closer look

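Among the 23 genes within the limit in all 4 samples, 5 had a difference of S-MT over TC whose sign was opposite at 4 and 12 weeks. The difference between the times was not tested, since each rests on 1 value per group. The 4-week values also depend on which reference gene is used. *Bgn* had a log2 difference of -0.52 at 4 weeks and 1.11 at 12 weeks, a gap of 1.62, and is the one gene of the 5 past 2-fold at 12 weeks. *Vegfa* had 1.43 at 4 weeks and -0.02 at 12 weeks, a gap of -1.45. *Igf1* had -0.56 at 4 weeks and 0.28 at 12 weeks (gap 0.84), *Bmpr2* -0.10 and 0.68 (gap 0.77), and *Smad2* 0.39 and -0.03 (gap -0.42). The last 3 were within 2-fold at both times.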

How the results depend on the processing

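The comparison was recomputed under 12 other settings and under 2 more that were chosen after seeing the data, the Ct of H06 as the limit and *Actb* with *B2m* as reference. No paired analysis was possible because each group has 1 value, and for the same reason no replicate could be left out. Both counts and the median stayed close to the reported ones (20 higher, 25 lower, median -0.29) with *Ldha* or *Rplp1* alone as reference, with an amplification of 1.9 per cycle, with only genes within the limit in both groups, and with the authors' normalized values. These are weak checks. The filter keeps the same 47 genes, so its median could not move. *Ldha* or *Rplp1* alone shifts every difference by only 0.11 or -0.11, and the amplification scales all differences alike. With all 5 housekeeping genes as reference 7 genes were higher and the median was -2.20. Against 16 target genes, taken by their median Ct, it was -1.50. With H06 as reference 56 genes were higher, 0 were lower and the median was 3.59. A limit of Ct 33 left 5 lower genes and a median of 1.11, and no limit gave 42 lower genes and a median of -1.33. Only genes at least 1 cycle ahead of H06 in both groups left 1 higher and 0 lower (median 2.46), and those ahead in at least one group left 2 lower (median 2.42). With the Ct of H06 as the limit, 6 genes were higher, 1 was lower and the median was 0.52. With *Actb* and *B2m* as reference, 1 gene was higher, 40 were lower and the median was -3.68. At a lead of 3 cycles, 12 genes in S-MT and 0 in TC were ahead of H06. Another reference shifts every log2 difference alike, by -1.90 for 5 housekeeping genes, -1.20 for the median of target genes, 3.88 for H06 and -3.39 for *Actb* and *B2m*. Under H06 the direction turned for 9 of the 28 genes described in full. These were *Sox9* (0.24), *Tnf* (0.51), *Bmp5* (0.64), *Phex* (0.70), *Mmp10* (0.82), *Alpl* (0.92), *Bmpr1b* (1.22), *Tgfb3* (1.61) and *Col10a1* (1.66). The other lower genes measured in both groups, except *Nog*, turned too, *Col2a1*, *Comp* and *Bmp1* among them. Under *Actb* and *B2m* the direction turned for 5 of the 28, *Anxa5* (-0.40), *Col1a1* (-0.43), *Col6a1* (-0.61), *Tgfbr1* (-0.81) and *Itgb1* (-0.82). The higher genes *Col1a2*, *Cd36*, *Serpinh1*, *Tgfbr2*, *Col5a1* and *Bgn*, outside the 28, turned too. *Col14a1*, *Icam1* and *Cdh11*, which rest on bounds, lost their place past 2-fold with all 5 housekeeping genes, with the 16 target genes and at Ct 33. *Itgav*, *Col6a1*, *Tgfbr1* and *Itgb1* lost it with all 5 housekeeping genes, at 0.74, 0.87, 0.67 and 0.66, and *Itgav* at Ct 33. Outside the 28 genes described in full, *Col1a2*, *Cd36*, *Serpinh1*, *Tgfbr2*, *Col5a1* and *Bgn* also lost it with all 5 housekeeping genes. Of the 305 values of the 28 genes described in full, 255 kept their direction and side of 2-fold. This share does not measure stability. Some settings only filter genes, so the values kept could not change, and genes left without a value are not counted. With H06 as reference 14 of the 28 kept both, and with *Actb* and *B2m* 15 did.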
